A study of Mus musculus with 12 samples.

Results

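Preosteoclasts depend on a small set of cytokine receptors, and 6 genes of that set are described here across cultures from mice with and without LSD1 in myeloid cells. They are Tnfrsf11a (RANK), Traf6, Csf1r, Csf2ra, Csf2rb and Csf3r, chosen by symbol from the 57010 genes listed, and each matched a single gene. All 6 passed the filter on low counts that left 15425 genes for testing. RANK is the receptor for RANKL, the cytokine that commits a precursor to the osteoclast lineage, and it signals through the adaptor TRAF6 to NF-kappaB and NFATc1. CSF1R is the receptor tyrosine kinase for M-CSF and IL-34 and carries the survival and proliferation signal of macrophages and osteoclast precursors, whereas GM-CSF, whose receptor pairs the alpha chain Csf2ra with the beta chain Csf2rb, and G-CSF, whose receptor is Csf3r, direct myeloid precursors towards macrophage, dendritic cell and granulocyte fates. LSD1, encoded by Kdm1a, takes methyl groups off histone H3 and so acts on the chromatin of the genes it binds.

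Gene expression was measured in 12 RNA-seq libraries of preosteoclasts grown for 2 days in M-CSF and RANKL from bone marrow of female mice, given as 2 months old in the series description, while the study's methods for the sequencing give another age. Marrow came from the mandible or the femur of mice that had worn a ligature for 7 days, or from the femur without ligature, in LSD1WT and LSD1cKO animals, which makes 6 groups of 2 libraries. LSD1cKO mice lose LSD1 through a Cre recombinase under the LysM (Lyz2) promoter, which is active in monocytes, macrophages and neutrophils. Whether the LSD1WT mice carried the floxed allele was not given in the sources used here. The labels name 9 mice, 5 LSD1WT and 4 LSD1cKO, of which 1 LSD1WT and 2 LSD1cKO gave a mandible and a femur library. The mandible LSD1WT library numbered 3 is a mandible sample by its title and a femur sample by its library name and in the count table, and was used as mandible. Levels are given as CPM, the count of a gene scaled to a fixed library total, after scaling for library composition, with n = 2 libraries per group and n = 6 per genotype.

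Kdm1a lay between 61.2 and 71.3 CPM in the LSD1WT libraries and between 15.6 and 24.3 CPM in the LSD1cKO libraries. Total counts ran from 21375805 to 32526751 per library. The femur LSD1WT libraries numbered 2, both the ligated and the unligated one, stood apart from the other 10. The summed level of 13 osteoclast genes (each with at least 1 count in every library) was 830 CPM in the ligated and 795 CPM in the unligated library numbered 2, against 13057 to 42726 CPM in the other 10, and the summed level of 10 macrophage genes was 45772 and 22069 CPM against 2087 to 9848 CPM. Of that macrophage sum, Lyz2, whose promoter drives the Cre, made up 35330 and 13829 CPM, against 1232 to 7579 CPM in the other 10. So the label preosteoclast fitted 10 libraries by these markers, while the other 2 had little osteoclast gene expression. Both of these libraries are in the LSD1WT group, and their part in each result below was measured by leaving them out together. The summed level of 13 neutrophil genes lay between 129 and 420 CPM, and of the 6 mast cell and basophil genes at least 3 were at 0 in each library.

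M-CSF and RANKL were added to the cultures, and the cells' own transcripts for the ligands of these receptors were rare. Tnfsf11, which encodes RANKL, had at most 2 counts, in 1 library. Csf2 (GM-CSF) and Il3 had a count of 0 in all 12 libraries, which allows up to 0.154 CPM in the shallowest library, and Csf3 (G-CSF) had at most 1 count. Csf1, which encodes M-CSF, was detected at 1.59 to 8.67 CPM in LSD1WT and 1.72 to 6.14 CPM in LSD1cKO, and these ranges overlap. Ligand protein was not measured.

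Per kilobase of exon, Csf1r was the most abundant of the 6 genes in 12 of 12 libraries. Its median was 232 CPM per kb, followed by Csf2ra at 52.3, Csf2rb at 46.0, Tnfrsf11a at 39.7, Traf6 at 11.02 and Csf3r at 2.73. Csf2ra, Csf2rb and Tnfrsf11a changed places with each other between libraries, so that order is not separated from the spread, while Csf3r held the lowest place in 11 of 12 libraries. The exception was the ligated femur LSD1WT library numbered 2, in which Csf3r stood above Tnfrsf11a and Traf6. By mean level among all genes tested, without correction for length, Csf1r lay above 99.7% of them, Csf2rb above 97.3%, Tnfrsf11a above 95.3%, Csf2ra above 91.3%, Traf6 above 83.8% and Csf3r above 40.1%.

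**Figure D1:**
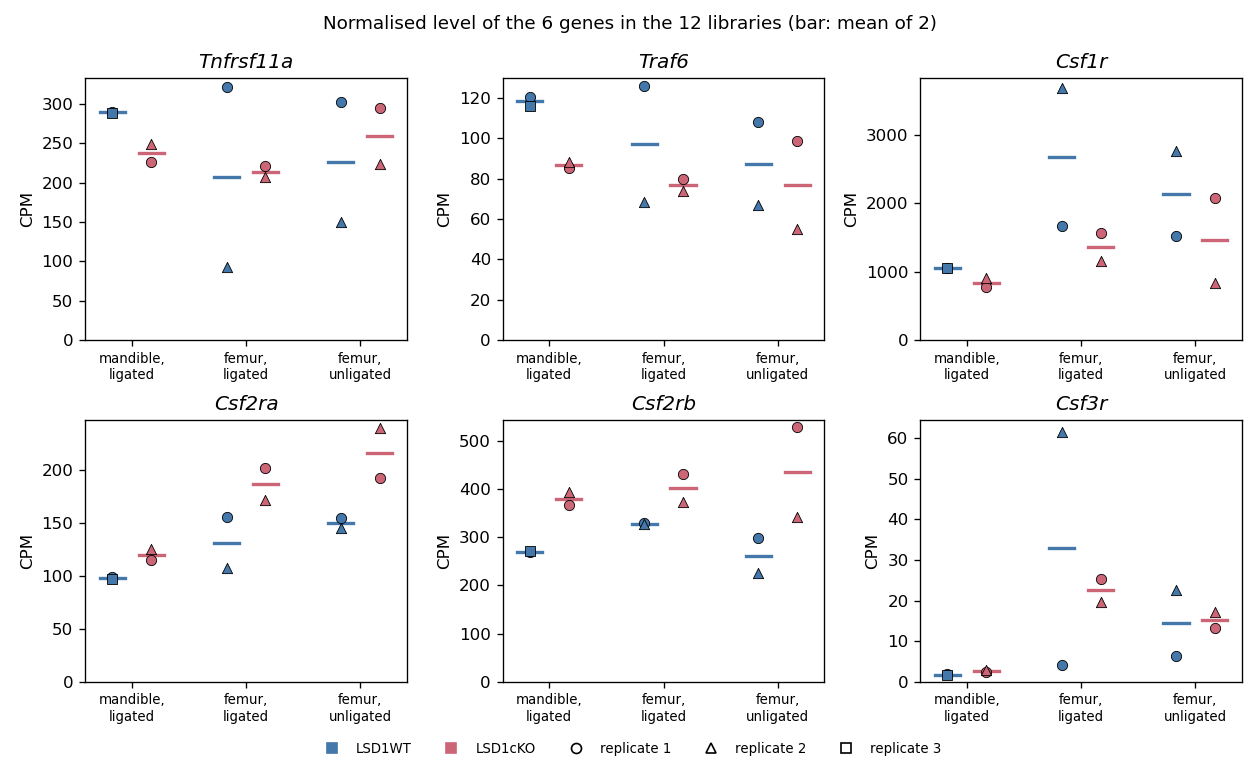
CPM (y axis) of the 6 genes in each culture, 1 point per library (blue LSD1WT, red LSD1cKO, shape for the replicate number) with a bar at the mean of 2. For Csf2ra and Csf2rb the red points of each culture all lie above the blue ones, and Tnfrsf11a is lowest, at 92.7 CPM, in the ligated femur LSD1WT library numbered 2.

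LSD1cKO was compared with LSD1WT over the 3 cultures to ask whether the receptors differ with the genotype. The smallest p-values were those of the chains of the GM-CSF receptor, whose levels lay higher in LSD1cKO in each culture without passing the adjusted threshold. In edgeR's quasi-likelihood test with culture as a term and Benjamini-Hochberg adjustment over all genes, 0 of the 6 members passed an adjusted p of 0.05, beside 3.41% of all genes (526). Csf2ra and Csf2rb, 2 of 6, had an unadjusted p under 0.05, as did 16.0% of all genes. DESeq2 called the same 2 members, beside 8.09% of the genes. The median log2 fold change of the members was 0.01, against -0.06 for all genes tested. In these bulk libraries, fewer cells of a type and less RNA per cell cannot be told apart.

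The alpha chain Csf2ra binds GM-CSF. In the mandible it measured 98.5 and 97.1 CPM in LSD1WT and 115 and 125 CPM in LSD1cKO. In the ligated femur the values were 155 and 108 CPM in LSD1WT and 202 and 171 CPM in LSD1cKO, and in the unligated femur 155 and 145 CPM against 192 and 240.1 CPM. Both LSD1cKO libraries lay above both LSD1WT libraries in each culture, and the means over cultures were 126 ± 28.3 CPM in LSD1WT and 174 ± 47.7 CPM in LSD1cKO (SD, n = 6). The log2 fold change over the 3 cultures was 0.44 (SE 0.12), with an unadjusted p of 0.0036 and an adjusted p of 0.0774 in edgeR's quasi-likelihood test. DESeq2 gave 0.45 with an adjusted p of 0.00767, so the call depends on the test.

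Csf2rb encodes the beta chain that GM-CSF shares with IL-3 and IL-5. Its levels in the mandible were 269 and 270.3 CPM in LSD1WT and 366 and 393 CPM in LSD1cKO. Ligated femur cultures held 328 and 327 CPM in LSD1WT and 430.3 and 374 CPM in LSD1cKO, and in the unligated femur 297 and 226 CPM against 528 and 341 CPM. The genotypes did not overlap in any culture, with means of 286 ± 39.4 CPM and 405 ± 67.0 CPM (SD, n = 6). The log2 fold change was 0.51 (SE 0.14), with an unadjusted p of 0.00436 and an adjusted p of 0.0867 by edgeR, and 0.52 with an adjusted p of 0.00869 by DESeq2.

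The mouse has a close paralog, Csf2rb2, which encodes the beta chain specific to IL-3. It passed the test over the 3 cultures and rose by 0.72 on the log2 scale (SE 0.14, adjusted p = 0.0215 in edgeR's quasi-likelihood test), from 183 ± 19.9 CPM to 304 ± 56.3 CPM (SD, n = 6). The 2 genes are alike in sequence, so reads can be split between them by the counting and each value is uncertain to that extent. Csf2rb had 1.27 to 1.82 times the counts of Csf2rb2 in the 12 libraries. With the counts of both genes summed, the log2 fold change was 0.60 (SE 0.14) and the adjusted p was 0.0515. Il3ra, the IL-3 alpha chain, and Il5ra, the IL-5 alpha chain, had log2 fold changes of 0.35 and 1.42 (adjusted p = 0.585 and 0.481), and Il5ra lay between 0 and 0.701 CPM.

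For the receptor chains Csf2ra and Csf2rb2, levels lay higher in LSD1cKO in each culture. For Tnfrsf11a the genotype means were close over all libraries, with a log2 fold change of -0.31 without the femur LSD1WT libraries numbered 2. The upstream sequences of these genes are shown. Each is the 250 bases before the RefSeq start on GRCm38.p6, 5′ to 3′ on the gene's strand, with GAGGAA, a core recognised by the myeloid factor PU.1, in capitals where it occurs on either strand (TTCCTC is its reverse complement).
Csf2ra chr19:61228419-61228668 (minus strand): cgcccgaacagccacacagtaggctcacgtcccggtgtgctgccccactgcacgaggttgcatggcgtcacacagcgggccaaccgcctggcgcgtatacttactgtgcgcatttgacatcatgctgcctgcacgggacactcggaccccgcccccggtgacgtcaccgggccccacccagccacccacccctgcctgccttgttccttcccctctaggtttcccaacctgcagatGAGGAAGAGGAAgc
Csf2rb2 chr15:78305722-78305971 (minus strand): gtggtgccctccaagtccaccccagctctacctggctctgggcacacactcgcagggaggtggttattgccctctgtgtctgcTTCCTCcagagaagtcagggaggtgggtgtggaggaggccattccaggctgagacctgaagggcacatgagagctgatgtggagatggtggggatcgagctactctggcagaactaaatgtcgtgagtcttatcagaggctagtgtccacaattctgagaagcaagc
Tnfrsf11a chr1:105780473-105780722 (plus strand): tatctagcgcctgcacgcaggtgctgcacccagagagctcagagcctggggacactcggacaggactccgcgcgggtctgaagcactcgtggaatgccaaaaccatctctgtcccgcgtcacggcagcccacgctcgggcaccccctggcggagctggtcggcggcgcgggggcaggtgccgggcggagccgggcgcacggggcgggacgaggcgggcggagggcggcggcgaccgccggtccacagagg

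Csf2ra holds the 6 letters in 2 copies directly following each other, at 14 to 9 and 8 to 3 bases before its start. Csf2rb2 holds 1 copy on the reverse strand, at 167 to 162 bases before the start, and Tnfrsf11a holds none in this window, which is 73.6% G and C against a median of 52.4% over all promoters. Of the other members, Csf3r has 1 copy (86 to 81 bases before the start) and Traf6 has 2. With all libraries their log2 fold changes over the 3 cultures were 0.02 and -0.33. Without the femur LSD1WT libraries numbered 2 these were 1.38 and -0.50. The 6 letters occur on either strand in 23.3% of the 32851 promoters of this length, and 4 of the 6 members had an entry. These matches describe letters and were not tested for binding.

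RANK itself varied more with the library than with the genotype. Tnfrsf11a measured 290.5 and 289 CPM in mandible LSD1WT and 226 and 249.6 CPM in mandible LSD1cKO. In the ligated femur it measured 321 and 92.7 CPM in LSD1WT against 221 and 207 CPM in LSD1cKO, and in the unligated femur 303 and 149.7 CPM against 295 and 224 CPM. The lowest 2 values belong to the femur LSD1WT libraries numbered 2, and between replicates the largest difference on the log2 scale was 1.79, in the ligated femur LSD1WT pair. The genotype means were 241 ± 95.2 CPM in LSD1WT and 237 ± 31.6 CPM in LSD1cKO (SD, n = 6), and the log2 fold change over the 3 cultures was -0.01 (SE 0.28, adjusted p = 0.991, edgeR). Without those 2 libraries it was -0.31 (SE 0.11, unadjusted p = 0.0142, adjusted p = 0.0564).

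TRAF6 is the ubiquitin ligase and adaptor that carries the signal from RANK to NF-kappaB and the MAP kinases. Traf6 measured 121 and 116 CPM in mandible LSD1WT and 85.4 and 88.3 CPM in mandible LSD1cKO. Ligated femur levels were 126 and 68.4 CPM against 79.7 and 73.9 CPM, and in the unligated femur at 108 and 66.8 CPM against 98.4 and 54.9 CPM. The genotypes were apart in the mandible and overlapped in both femur cultures. The log2 fold change over the 3 cultures was -0.33 (SE 0.19, adjusted p = 0.467, edgeR), and without the femur LSD1WT libraries numbered 2 it was -0.50 (SE 0.14, adjusted p = 0.0297).

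Csf1r was the member with the widest range in CPM. It measured 1051 and 1049.6 CPM in mandible LSD1WT and 777 and 908 CPM in mandible LSD1cKO. Ligated femur values were 1668 and 3684 CPM in LSD1WT and 1564 and 1156 CPM in LSD1cKO, and in the unligated femur 1522 and 2765 CPM against 2078 and 841 CPM. The 2 highest values are those of the femur LSD1WT libraries numbered 2, which also had the highest macrophage sums. The genotype means were 1957 ± 1054 CPM and 1221 ± 509 CPM (SD, n = 6), with a log2 fold change of -0.62 (SE 0.28, unadjusted p = 0.0527, adjusted p = 0.319, edgeR). Leaving out those 2 libraries brought it to -0.20 (SE 0.22, adjusted p = 0.567). In these libraries Csf1r had 39.8 and 18.5 times the counts of Tnfrsf11a, against 3.44 to 7.08 times in the other 10.

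Csf3r, the receptor of the granulocyte factor G-CSF, was the rarest member and the one that differed most between mandible and femur. The mandible values were 1.88 and 1.61 CPM in LSD1WT (46 and 44 counts) and 2.47 and 2.81 CPM in LSD1cKO (72 and 91 counts). Femur levels were higher, at 4.24 and 61.5 CPM in LSD1WT and 25.2 and 19.8 CPM in LSD1cKO with ligature, and without it 6.38 and 22.7 CPM against 13.3 and 17.2 CPM. The LSD1WT pairs of the femur enclose the LSD1cKO pairs, and the log2 fold change over the 3 cultures was 0.02 (SE 0.53, adjusted p = 0.991, edgeR). Without the femur LSD1WT libraries numbered 2 it was 1.38 (SE 0.29, adjusted p = 0.00685, edgeR), in a fit that called 23.9% of all genes. Within the ligated femur it was then 2.49 (SE 0.28), where LSD1WT has 1 library and is assumed to vary like the other groups.

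**Figure D2:**
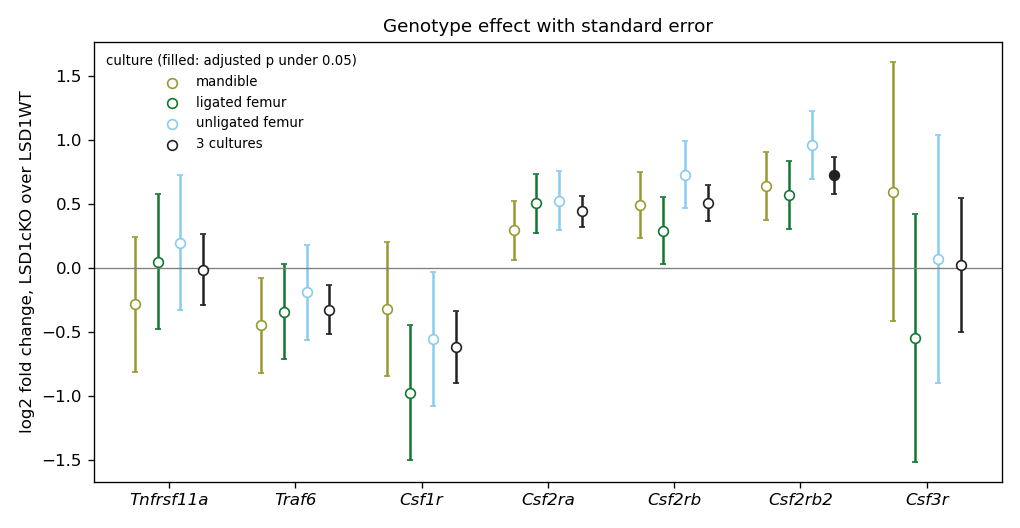
Log2 fold change of LSD1cKO over LSD1WT (y axis, bar: standard error) for the 6 genes and the paralog Csf2rb2 in each culture and over the 3 cultures, with filled points for an adjusted p under 0.05. Csf2rb2 over the 3 cultures, at 0.72, is the single filled point, and the 4 estimates of Csf2ra and of Csf2rb all lie above 0.

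Within single cultures no member passed the test. In the mandible, 0 of 6 members had an adjusted p under 0.05 (0% of all genes) and 0 of 6 an unadjusted p under 0.05 (4.70% of all genes), by edgeR's quasi-likelihood test. DESeq2 also called 0 members there, beside 0.947% of the genes. In the ligated femur the counts were 0 of 6 (0.00648%, 1 gene) and 0 of 6 (6.76%), with 0 by DESeq2, beside 1.43% of the genes. In the unligated femur 0 of 6 passed (0%), and Csf2ra (log2 fold change 0.53, SE 0.23) and Csf2rb (0.73, SE 0.26) had an unadjusted edgeR p under 0.05, beside 4.86% of the genes, with adjusted p-values of 1 and 0.823. DESeq2 called 0 members there, beside 0.807% of the genes. All groups share 1 estimate of the spread in this fit. Fitted on the 4 mandible libraries alone, 5 of 6 members passed the edgeR test (not Csf3r), beside 37.6% of all genes. That fit takes its spread from the mandible pairs, of which the LSD1WT pair had a biological coefficient of variation of 0.0246 and the LSD1cKO pair 0.0965, and 1 of the LSD1WT libraries has the conflicting site label.

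The genotypes did not overlap for 6 of 6 members in the mandible, beside 68.9% of all genes. The mandible LSD1WT pair differed little (biological coefficient of variation 0.0246), and whether its 2 libraries are independent samples was not tested. Tnfrsf11a, Traf6 and Csf1r were lower in LSD1cKO there, and Csf2ra, Csf2rb and Csf3r were higher. The summed osteoclast level in the mandible was 15661 to 15774 CPM in LSD1cKO against 27364 to 27494 CPM in LSD1WT, with 13 of 13 genes lower and 0 past the test (edgeR, 0 also at an unadjusted p under 0.05). The sum of 6 progenitor genes was 74.5 to 88.1 against 20.7 to 21.3 CPM, and that of 8 stromal genes 21.5 to 26.5 against 51.3 to 53.6 CPM, and the part of these in the members' levels was not tested. In the ligated femur 3 of 6 did not overlap (Csf1r lower, Csf2ra and Csf2rb higher), beside 34.2% of genes, and in the unligated femur 2 of 6 (Csf2ra and Csf2rb, both higher), beside 18.4%. Csf2ra and Csf2rb were above LSD1WT without overlap in 3 of 3 cultures, beside 5.17% of all genes, and 0 members were below in 3 of 3, beside 3.20%. Without the femur LSD1WT libraries numbered 2, Csf3r joined them, making 3 members above in 3 of 3 cultures, beside 15.2% of genes.

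The difference of the genotype effect between cultures was tested as an interaction. Between mandible and ligated femur, 0 of 6 members passed in edgeR's quasi-likelihood test (adjusted 0%, and 0 of 6 unadjusted, beside 0.947%), and between ligated and unligated femur 0 of 6 (adjusted 0%, and 0 of 6 unadjusted, beside 0.298%). DESeq2 called 0 members in either, beside 0.00648% and 0% of the genes. The estimates were imprecise: for Csf2ra they were -0.21 (SE 0.32) and -0.02 (SE 0.32), and for Csf3r 1.14 (SE 1.40) and -0.62 (SE 1.37) on the log2 scale. Without the femur LSD1WT libraries numbered 2, the Csf3r estimates turned direction, to -1.86 (SE 0.35) and 1.22 (SE 0.36) by edgeR. That fit leaves 1 LSD1WT library in each femur culture, so these values rest on single libraries. With all libraries, a difference between cultures as large as the genotype effect itself was not detectable.

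Mandible was compared with the ligated femur within each genotype. Csf3r differed most by site, with a log2 fold change of -4.23 in LSD1WT (SE 1.12, adjusted p = 0.174) and -3.09 in LSD1cKO (SE 1.05, adjusted p = 0.236) in edgeR's quasi-likelihood test, and all 4 mandible values lay below all 8 femur values. Csf1r was lower in the mandible in LSD1WT (-1.35, SE 0.53, adjusted p = 0.226), and Csf2ra in LSD1cKO (-0.64, SE 0.23, adjusted p = 0.253). Thus 0 of 6 members passed in LSD1WT (0% of all genes), with 2 of 6 at an unadjusted p under 0.05 beside 19.5% of genes, and 0 of 6 in LSD1cKO (0%), with 2 of 6 beside 14.8%. DESeq2 called Csf3r in both comparisons (adjusted p = 0.000658 and 0.0257), beside 8.73% and 5.58% of genes. The 2 LSD1cKO mice gave both sites, and the pairing was not part of this fit. The LSD1WT comparison and the order of the Csf3r values take the library numbered 3 as mandible, while its library name and the count table say femur. Taken as femur, its Csf3r level of 1.61 CPM would lie below all mandible values.

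The site differences also depended on which libraries entered. With the femur LSD1WT libraries numbered 2 left out, the LSD1WT change was -1.25 for Csf3r (SE 0.27, adjusted p = 0.0906, edgeR) and -0.63 for Csf1r (SE 0.46, adjusted p = 0.579). In the same fit Csf2ra (-0.65, adjusted p = 0.0252) and Csf3r (-3.10, adjusted p = 0.000578) passed in LSD1cKO by edgeR, beside 21.2% of genes. Without the ligated femur LSD1WT library numbered 1, Csf3r passed in LSD1cKO (adjusted p = 0.023, edgeR), beside 4.04% of genes. Without the one numbered 2 it passed as well (adjusted p = 0.0271), beside 4.02% of genes. Without the library numbered 1, the LSD1WT comparison rests on the library numbered 2, which stood apart, and Tnfrsf11a, Csf1r and Csf3r passed, beside 22.9% of genes. The neutrophil sum was 158 to 189 CPM in the mandible, 311 and 347 CPM in ligated femur LSD1cKO, and 129 and 420 CPM in ligated femur LSD1WT, and its part in the level of Csf3r was not tested.

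Ligature was compared in the femur, a site distant from the teeth, and no member passed the test. In LSD1WT, 0 of 6 members passed in edgeR's quasi-likelihood test (0% of all genes), with 0 of 6 at an unadjusted p under 0.05 beside 0.720% of genes. In LSD1cKO the counts were 0 of 6 (0%) and 0 of 6 beside 0.934%. DESeq2 called 0 members in either, beside 0.013% of the genes in LSD1WT and 0.00648% in LSD1cKO. The log2 fold changes of ligated over unligated ran from -0.19 for Csf2ra to 1.18 for Csf3r (SE 0.98) in LSD1WT, where Csf3r was -0.64 (SE 0.30) without the femur libraries numbered 2, and from -0.28 for Tnfrsf11a to 0.56 for Csf3r (SE 0.97) in LSD1cKO.

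Across the 12 libraries, Tnfrsf11a followed the osteoclast genes. Pearson's r between log2 CPM and the log2 summed osteoclast level was 0.93 for Tnfrsf11a and 0.64 for Traf6, and 0.85 and 0.83 over the 10 libraries without the femur LSD1WT libraries numbered 2. For Csf1r it was -0.63 over 12 and 0.77 over 10 libraries, so its sign rests on those 2. The values for Csf2ra (0.18) and Csf2rb (0.38) were weak, and both were below 0 over 10 libraries (-0.15 and -0.22). These are descriptions over libraries that share genotype, site, mouse and depth. The correlation of Csf3r with the summed neutrophil level was positive (0.74 over 12 and 0.76 over 10 libraries). Csf2ra and Csf3r correlated at 0.52 over 12 and 0.93 over 10 libraries.

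**Figure D3:**
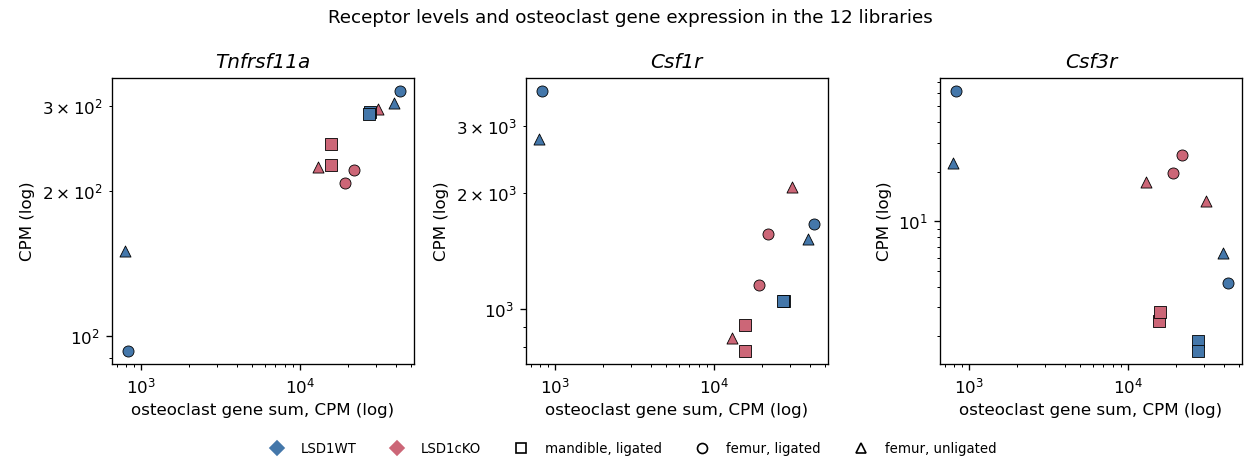
CPM of 3 receptor genes (y axis, log scale) against the summed CPM of 13 osteoclast genes (x axis, log scale), 1 point per library, coloured by genotype and shaped by culture. The femur LSD1WT libraries with osteoclast sums of 830 and 795 CPM stand alone at the left, where Tnfrsf11a is lowest and Csf1r highest.

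The genes whose log2 CPM was most like each member's over the 12 libraries were named as a description. For Tnfrsf11a they were Fbxl16, Fdxr, Gm12892, Lactb and Esrp2 (r = 0.99 to 0.98), for Traf6 Exoc6b, Meak7, Fzd8, Coa5 and Arcn1, and for Csf1r Tbc1d22a, Ripk1, Gapvd1, Foxo3 and Laptm5. Csf2ra was most like Phka2 (r = 0.94), Parp3, Sel1l3, Pilra and Siglecf. The gene most like Csf2rb was its paralog Csf2rb2 (r = 0.95), followed by 2410004P03Rik, Plxna1, Rrad and Acpp. Csf3r was most like P2rx4 (r = 0.99), Hpse, Cd84, Cd200r1 and Tmem140.

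The pathways around these receptors were examined with 88 further genes in 12 lists, of which 83 were tested. Over the 3 cultures 3 rose in LSD1cKO (Csf2rb2, Cebpe and Socs1) and 1 fell (Tgfbr2) in edgeR's quasi-likelihood test, against 3.41% of all genes called in either direction. With an unadjusted p under 0.05, 7 were higher and 7 lower, beside 16.0% of all genes in either direction. DESeq2 called 6, the same 4 with Spry2 and Epor lower, beside 8.09% of all genes. Epor had 67 and 39 counts in the femur LSD1WT libraries numbered 2 and 1 to 6 counts in the other 10, and it was not called without those 2. None of the 83 passed in the other 9 comparisons by edgeR. The unadjusted counts there started at 0 in both interactions. They were largest for mandible against ligated femur in LSD1WT, with 2 higher and 27 lower, beside 19.5% of all genes. DESeq2 called Cebpe in the ligated femur (beside 1.43% of all genes) and Cebpe and Socs1 in the unligated femur (0.807%). In that site comparison it called 11 lower genes (8.73%).

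Cebpe encodes a transcription factor of late granulocyte differentiation and was rare in these cultures. In LSD1WT it measured 0.58 to 1.83 CPM and in LSD1cKO 3.54 to 7.93 CPM, so the genotypes did not overlap in 12 libraries. It rose by 1.96 on the log2 scale (SE 0.33, adjusted p = 0.0095, edgeR). Socs1, the inhibitor that feeds back on JAK kinases, measured 1.49 to 2.52 CPM in LSD1WT and 3.43 to 6.09 CPM in LSD1cKO and rose by 1.17 (SE 0.23, adjusted p = 0.0213). Tgfbr2, the type II receptor of TGF-beta, measured 267 to 347 CPM in LSD1WT and 126 to 244 CPM in LSD1cKO and fell by 0.82 (SE 0.16, adjusted p = 0.0209).

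These 4 calls differed in how they held when 1 choice was altered, over 21 alternatives each. Cebpe kept its call in all 21, with adjusted p-values from 1.12e-07 to 0.0304. Csf2rb2 lost it in 1, without the mandible LSD1WT library numbered 1 (adjusted p = 0.0514). Socs1 lost it in 1, without the ligated femur LSD1cKO library numbered 2 (adjusted p = 0.0562). Tgfbr2 lost it in 8, namely with each of the 4 mandible libraries or either ligated femur LSD1cKO library left out, with the mandible LSD1WT libraries summed and with the replicate number as a block, with adjusted p-values up to 0.0819.

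Within the RANK pathway lists, 0 of 29 tested genes passed by edgeR. Of the 29, 1 higher gene (Traf2) and 2 lower ones had an unadjusted p under 0.05, beside 16.0% of all genes. DESeq2 called 0 of them, beside 8.09% of all genes. Without the femur LSD1WT libraries numbered 2, edgeR called 9 of these genes, beside 23.9% of all genes. Traf1, Traf2, Map3k14, Ikbkb, Mapk14 and Irak3 were higher and Lgr4, Ikbkg and Nfatc1 lower. Lgr4, a receptor for RANKL that competes with RANK, measured 4.71 ± 2.53 CPM in LSD1WT and 1.77 ± 0.81 CPM in LSD1cKO (SD, n = 6), with a log2 fold change of -1.42 (adjusted p = 0.173). The adaptor Traf2 had a log2 fold change of 0.51 (adjusted p = 0.145) and Traf1 of 0.97 (adjusted p = 0.701). Traf1 stood at 1.44 and 1.28 CPM in the femur LSD1WT libraries numbered 2 and at 146 to 179 CPM in the other LSD1WT libraries, against 194 to 233 CPM in LSD1cKO. The decoy receptor Tnfrsf11b, the inhibitors Tnfaip3 and Irak3, and the NF-kappaB subunits Nfkb2 and Relb lay between 0.22 and 0.37, none with an adjusted p under 0.65. Tnfaip3 measured 24.4 and 17.7 CPM in the femur LSD1WT libraries numbered 2 and 122 to 157 CPM in the other LSD1WT libraries. In LSD1cKO it measured 96.3 to 157 CPM. Nfkb2 and Relb were also lowest in those 2 libraries, while Irak3 was highest there, at 51.3 and 42.4 CPM.

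The lists of CSF1R signalling held no call among 24 tested genes over the 3 cultures by edgeR. At an unadjusted p under 0.05, 3 were lower, beside 16.0% of all genes, and DESeq2 called 1, Spry2, beside 8.09%. Without the femur LSD1WT libraries numbered 2, edgeR called 5, beside 23.9% of all genes. Adam17, Fyn and Mapk3 were higher and Cblb and Spry2 lower. Of its negative regulators, Spry2 (-0.48, SE 0.13, adjusted p = 0.0886) and Cblb (-0.54, adjusted p = 0.255) had negative log2 fold changes. Ets2, a transcription factor that acts on Csf1r, had a log2 fold change of -1.09 (adjusted p = 0.205, edgeR), with LSD1WT values of 77.8 and 167 CPM in the femur libraries numbered 2 and 30.0 to 36.3 CPM in the other 4, against 21.8 to 31.1 CPM in LSD1cKO, and it was not called without those 2. Among the kinases that serve the GM-CSF and G-CSF receptors, Jak2 measured 38.7 ± 18.7 CPM in LSD1WT and 56.0 ± 12.7 CPM in LSD1cKO (SD, n = 6). Its log2 fold change was 0.61 (adjusted p = 0.153, edgeR). Jak2 stood at 68.3 and 52.8 CPM in the femur LSD1WT libraries numbered 2 and at 20.6 to 36.5 CPM in the other 4. Without those 2, edgeR over the 3 cultures called Jak2, Tyk2, Stat5a, Stat5b, Socs1, Socs3 and Pim1 higher, beside 23.9% of all genes. It called no gene of the JAK-STAT list lower. Of the other cytokine receptors, Kit had a log2 fold change of 0.88 (adjusted p = 0.331) and Epor, carried by the femur LSD1WT libraries numbered 2, of -3.05 (adjusted p = 0.16).

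**Figure D4:**
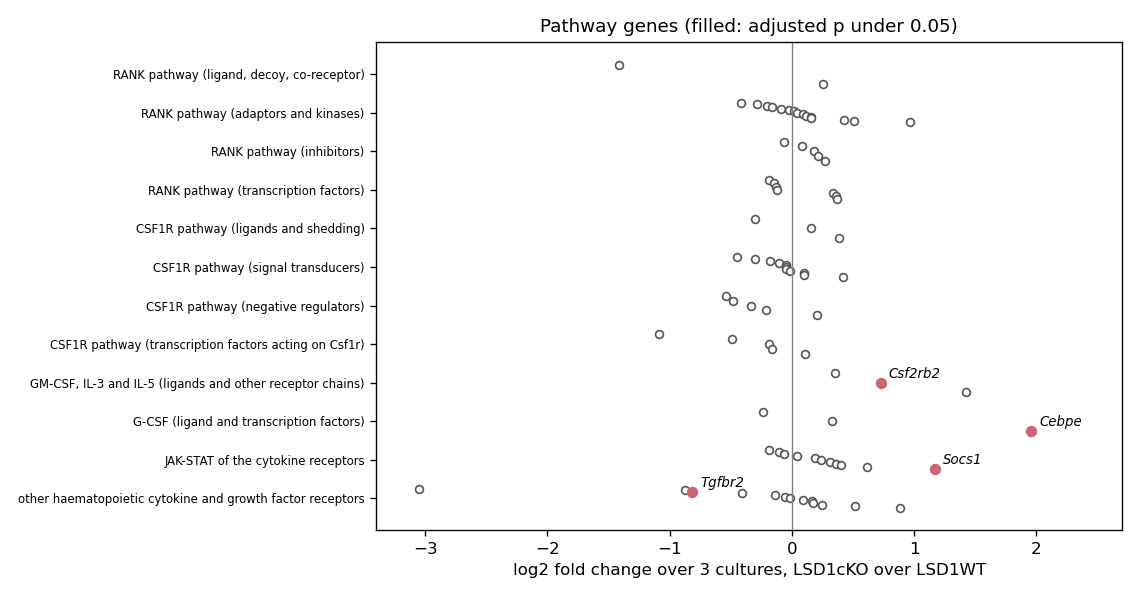
Log2 fold change of LSD1cKO over LSD1WT over the 3 cultures (x axis) of the 83 pathway genes tested, 1 point per gene in 12 lists (y axis), with filled and named points for an adjusted p under 0.05. Csf2rb2, Cebpe and Socs1 lie at the right and Tgfbr2 at the left.

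Without the femur LSD1WT libraries numbered 2 the counts of the effect over the 3 cultures were larger. In that fit 3833 of 16008 genes passed (23.9%) by edgeR, among them 4 of 6 members (Traf6, Csf2ra, Csf2rb and Csf3r), and 24 pathway genes were higher and 7 lower of 82 tested. The 4 pathway genes called with all libraries remained called. Csf2ra had a log2 fold change of 0.38 (SE 0.10, adjusted p = 0.0181) and Csf2rb of 0.49 (SE 0.13, adjusted p = 0.0197), close to the values with all libraries. Csf2ra also passed without the ligated femur LSD1WT library numbered 1 (0.55, SE 0.12, adjusted p = 0.0456), beside 3.28% of genes.

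**Figure D5:**
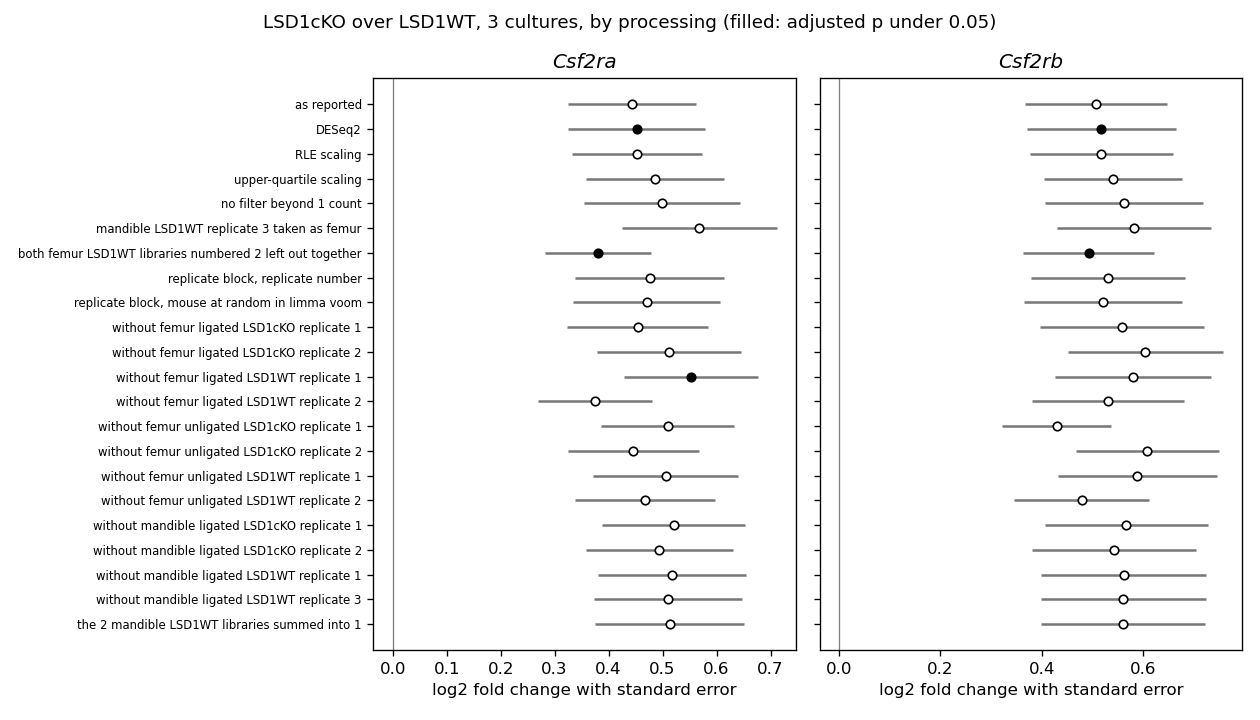
Log2 fold change over the 3 cultures (x axis, bar: standard error) of Csf2ra and Csf2rb under each processing alternative (y axis), with filled points for an adjusted p under 0.05. All estimates lie above 0, and the filled points are DESeq2 and the fit without both femur LSD1WT libraries numbered 2 for both genes, and the fit without the ligated femur LSD1WT library numbered 1 for Csf2ra.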

How the data were processed

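RNA-seq libraries of 12 preosteoclast cultures were analysed, grouped by genotype and culture from the sample labels. The authors deposited raw read counts for 57010 genes, with no normalization. The submitters' processing notes name HISAT2 2.1.0, featureCounts, edgeR and FastQC, and the build GRCm39. The 6 genes, the pathway lists and the tests were chosen with earlier results of these data known.

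In R 4.3.3, edgeR 4.0.16 kept 15425 genes (filterByExpr) and scaled libraries by TMM. Quasi-likelihood models were fitted with 1 coefficient per group, and with culture and genotype as terms for the effect over 3 cultures, in which 2 libraries of a mouse counted as separate. P-values are two-sided and Benjamini-Hochberg adjusted over all genes tested in each of 10 comparisons, against 0.05. Labels name separate mice within a group and say nothing of separate culture runs, so p-values measure the spread between these libraries. CPM used the scaled library sizes, log2 CPM a prior count of 2, and a count of 0 was taken to allow 3 counts, for counting error only. Exon lengths were GENCODE lengths on GRCm38, another build than the authors' own.

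Replicates differed unequally. The biological coefficient of variation was 0.0246 for the mandible LSD1WT pair, 0.716 and 0.664 for the ligated and unligated femur LSD1WT pairs, and 0.0965 to 0.357 for the LSD1cKO pairs, while the fit shares 1 trend (common value 0.419). Alternatives were DESeq2 1.42.0, limma 3.58.1, 2 other scalings, another filter, other sets of libraries and each library left out. Named genes are the 6 genes, Csf2rb2, Kdm1a, Lyz2, pathway genes past the threshold in any comparison and the 2 with the largest absolute change in each list, and the 5 genes most correlated with each member. The steps were tested on simulated data. Promoter sequences are from RefSeq (GRCm38.p6).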

Additional observations from a re-analysis of the deposited data

How the results depend on the processing

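For the 6 genes, 658 values of 30 results were recomputed. Of these 600 kept direction and side of the threshold, 23 newly passed it and 35 turned direction. The fits as reported called 0 of the 6 members, so no call could be lost, and keeping the side of the threshold meant staying uncalled. The number of members called over the 3 cultures was 2 by DESeq2 (beside 8.09% of genes) and 4 without both femur LSD1WT libraries numbered 2 (23.9%). For mandible against ligated femur it was 1 in each genotype by DESeq2 (8.73% of genes in LSD1WT and 5.58% in LSD1cKO). Leaving out both libraries gave 2 for the site in LSD1cKO (21.2%), and leaves 1 LSD1WT library in the ligated femur. Fits on the compared groups alone gave 5 in the mandible (37.6%) and 3 for the site in LSD1cKO (42.3%). With 1 library left out, the calls ran from 0 to 1 over the 3 cultures, where the fit with 1 called 3.28% of genes. For the site in LSD1cKO they ran from 0 to 1, where the fits with 1 called 4.04% and 4.02% of genes. For the site in LSD1WT, leaving out a compared library leaves 1 library in its group. All genes called over the 3 cultures numbered 526, and 1248 by DESeq2, 3833 without both femur libraries, 334 with mandible LSD1WT replicate 3 as femur, 329 with the 2 mandible LSD1WT libraries summed (added after seeing the data), and 287 to 640 with 1 library left out. The mandible LSD1WT pair was the closest of the groups, with a biological coefficient of variation of 0.0246. The cause of these shifts was not tested.

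Direction turned in the following values, of which Csf3r in the ligated femur without both femur libraries rests on 1 LSD1WT library. For Tnfrsf11a over the 3 cultures the log2 fold change was 0.0185 with upper-quartile scaling, 0.0426 without the filter, 0.0683 with the mandible libraries summed, and from -0.18 to 0.28 with 1 library left out. In the ligated femur it was -0.0582 with the relabelled library, -0.50 without both femur libraries and from -0.59 to 1.30 with 1 left out, and in the unligated femur -0.21 without both and from -0.21 to 0.87. Csf3r in the ligated femur was 0.091 with the relabelled library, 2.49 without both femur libraries and from -1.36 to 2.40 with 1 left out. With 1 left out it ran from -0.50 to 1.27 in the unligated femur and from -0.12 to 0.77 over the 3 cultures. Traf6 ran from -0.72 to 0.25 in the ligated and from -0.65 to 0.27 in the unligated femur, and Csf1r from -1.32 to 0.00721 in the unligated femur.

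Replicate numbers are shared by different mice in the genotype comparisons, so they do not pair samples there. Deviations of same-numbered libraries between genotypes correlated at -0.02 in the ligated and 0.22 in the unligated femur, and those of the 2 LSD1cKO mice between sites at 0.03. Same-numbered ligated and unligated femur LSD1WT libraries, which come from different mice, correlated at 0.78, and those numbered 2 are the 2 that stood apart. With the replicate number as a replicate block, 390 genes were called over the 3 cultures and Tnfrsf11a was 0.20 there and 0.0718 in the mandible, and Csf3r was 0.054 in the ligated femur. With the mouse as a random replicate block in limma, 382 genes were called, Tnfrsf11a was 0.19 over the 3 cultures and Csf3r 0.74 in the ligated femur. The correlation between libraries of a mouse that limma estimated was 0.52 in the model with culture and genotype. It was -0.39 in the model with 1 coefficient per group. No member was called in either fit of the effect over the 3 cultures.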
